A study of Homo sapiens with 18 samples.

Results

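The genes described here are 10 regulators and markers of the epithelial-mesenchymal transition (EMT), namely the transcription factors SNAI1, SNAI2, ZEB1, ZEB2 and TWIST1, the cadherins CDH1, CDH2 and CDH3, and VIM and FN1. They were chosen by name and found by Entrez gene ID among the 23604 entries listed in the RNA-Seq files, and all 10 were present. The cells were MCF10A-ErSrc, a non-tumorigenic human breast epithelial line that carries the v-Src oncoprotein fused to part of the oestrogen receptor, so that tamoxifen switches the kinase on. NT cells received no tamoxifen, TAM cells were transformed by tamoxifen, and all 4 groups carry the v-Src fusion. Both kinds of cell were given triptolide (TPL, 4h-125 nM), a plant compound known to block RNAPII transcription by acting on the general factor TFIIH, or its solvent DMSO over the same 4 h. The groups are called NT, NT+TPL, TAM and TAM+TPL, with 2 RNA-Seq libraries and 2 RNA polymerase II (RNAPII) ChIP-Seq samples in each. With 2 inputs this makes 18 samples. The model is a single cell line, and per the study's methods the 2 libraries of a group are independent biological replicates.

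In the EMT, epithelial cells loosen their junctions and take on features of motile mesenchymal cells. The SNAIL factors (SNAI1, SNAI2) and the ZEB factors (ZEB1, ZEB2) are zinc-finger repressors that bind E-box sequences, among them that of the CDH1 promoter, and TWIST1 is a basic helix-loop-helix factor of the same programme. CDH1 encodes E-cadherin, the main adhesion protein of epithelial junctions. CDH3 encodes P-cadherin, which is typical of basal epithelium, and CDH2 encodes N-cadherin of mesenchymal and neural cells. VIM encodes the intermediate filament vimentin and FN1 the matrix protein fibronectin. MCF10A cells are basal-like and express vimentin in culture without any inducer.

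The promoter sequences of 5 of the 10 genes were at hand in RefSeq (build GRCh38.p14), each window running from 250 bases before to 50 bases after an annotated start. ZEB1, ZEB2, CDH2, VIM and FN1 were matched, with 12 windows in all, and SNAI1, SNAI2, TWIST1, CDH1 and CDH3 were not. The 6-base E-box CAGGTG, read as CACCTG on the opposite strand, is the sequence that SNAIL and ZEB factors are known to bind, and 20.6% of the 35116 RefSeq windows of the same length hold it. Of the 12 windows, only a pair of ZEB1 windows held it. They are shown because they hold the E-box, and the VIM window is shown beside them because VIM was the most abundant of the 10 transcripts and its window holds no such letters. Capitals mark the E-box on either strand. A match is a description of the letters, not evidence of binding.
ZEB1, chr10:31318167-31318466, plus strand: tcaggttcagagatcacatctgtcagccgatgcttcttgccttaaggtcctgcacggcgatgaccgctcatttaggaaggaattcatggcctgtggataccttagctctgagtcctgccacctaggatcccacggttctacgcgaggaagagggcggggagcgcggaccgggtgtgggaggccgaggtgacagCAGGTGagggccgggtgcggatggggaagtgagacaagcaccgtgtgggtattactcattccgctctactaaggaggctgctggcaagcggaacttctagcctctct
ZEB1, chr10:31318966-31319265, plus strand: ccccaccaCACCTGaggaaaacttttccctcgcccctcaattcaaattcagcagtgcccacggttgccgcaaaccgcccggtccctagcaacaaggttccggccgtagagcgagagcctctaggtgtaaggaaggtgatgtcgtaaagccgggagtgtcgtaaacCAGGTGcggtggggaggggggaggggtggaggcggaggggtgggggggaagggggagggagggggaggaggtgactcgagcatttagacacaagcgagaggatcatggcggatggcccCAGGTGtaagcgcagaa
VIM, chr10:17227991-17228290, plus strand: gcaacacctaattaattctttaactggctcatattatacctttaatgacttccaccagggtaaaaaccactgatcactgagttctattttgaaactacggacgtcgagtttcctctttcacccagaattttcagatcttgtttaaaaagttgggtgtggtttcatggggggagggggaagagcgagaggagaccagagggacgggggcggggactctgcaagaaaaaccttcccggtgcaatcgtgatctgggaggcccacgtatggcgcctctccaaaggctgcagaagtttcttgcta
The first ZEB1 window holds 1 E-box, which begins 57 bases before the start (-57). The second holds 3, which begin at -242, -85 and +33. When the windows were matched to the build of the peak lists (hg19), each was found exactly 1 time. The first ZEB1 window shared 159 bases with a peak of the NT list and 239 after TPL, and 178 with a peak of the TAM list and 296 after TPL. The second shared 168, 100, 133 and 181 bases in the same order. The VIM window shared 0 bases with a peak in any of the 4 lists.

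The total of expected counts, the estimated reads per gene without normalization, was between 7461309 and 8349448 per library. Levels are given as FPKM, in which counts are divided by transcript length and by the total of the library, so they compare genes as well as libraries. The differences are log2 fold changes of the counts from edgeR's quasi-likelihood test, fitted in 1 model over the 4 groups and 16948 entries, with Benjamini-Hochberg adjustment over all of them. The low-count filter kept all 10 genes. A call required an adjusted p of 0.001 or less together with a log2 change of 1.2 or more in either direction. The second level is an adjusted p of 0.05 or less, at which a gene is said to have risen or fallen. The values are relative to the RNA of the library, so a rise or fall is a change of share in that RNA. The counts show neither the amount of RNA per cell nor the number of cells. A larger share cannot be told apart from a loss of other RNA. Where libraries of 1 group are said to lie above or below those of another, this describes the values only. The share of all entries that separate in the same way was not counted. With TPL, 47.8% of entries in NT and 45.1% in TAM cells had an unadjusted edgeR p under 0.05. Basal epithelial markers (8 of 8 listed, among them KRT5 and KRT14) summed to between 17300 and 19000 FPKM in the NT libraries and to 10800 and 13700 with TPL added. In TAM libraries the sum was 7970 to 8210 FPKM, and 4140 to 4520 with TPL. KRT5, KRT6A and KRT17 made up most of these sums, and the 8 markers did not move alike. KRT6A was at 4101.44 and 3969.42 FPKM in NT and 4062.49 and 4623.26 in TAM libraries, LAMB3 at 266.13 and 286.28 against 487.78 and 396.02, and ITGB4 at 365.73 and 392.77 in NT libraries and 723.82 and 532.83 after TPL. The sum moved with both comparisons, and its part in the results was not tested. Luminal markers (6 of 6 listed) summed to between 538 and 950 FPKM. KRT8, KRT18 and ESR1 made up most of this sum. KRT19 was at most 0.09 FPKM, GATA3 at most 6.38 and FOXA1 at most 5.2. ESR1 was at 199.65 and 248.49 FPKM in NT libraries, and its reads were not told apart from those of the oestrogen receptor part of the v-Src fusion. The markers of fibroblasts (6 of 6), endothelium (4 of 5) and leukocytes (4 of 5) summed to at most 12.9, 2.78 and 26.1 FPKM. The endothelial marker CDH5 was at 0 in every library. The leukocyte sum was 7.53 to 11.5 FPKM with DMSO and 17.0 to 26.1 with TPL. Of its markers, ITGAM was at most 0.05 FPKM with DMSO and at 5.2 to 9.82 with TPL, while CD14 was at 7.57 and 6.8 in TAM libraries and 5.75 and 7.51 after TPL. The part of these markers in the results was not tested.

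The levels of the 10 genes spanned a wide range. VIM was the highest, at a mean of 484.2 FPKM over the 8 libraries, and CDH1 and CDH3 followed at 76.78 and 28.38. FN1 (13.17), SNAI2 (12.7) and SNAI1 (10.14) came next, then ZEB1 (3.366) and TWIST1 (3.086). CDH2 (0.445) and ZEB2 (0.39) were both under 1 FPKM, on 8.96 to 35.86 and 3 to 68 expected counts per library. Compared within libraries, the higher neighbour in this order led in 8 of 8 libraries for VIM over CDH1, CDH1 over CDH3, CDH3 over FN1 and TWIST1 over CDH2. FN1 exceeded SNAI2 in 5 of the 8 libraries, SNAI2 exceeded SNAI1 in 4, SNAI1 exceeded ZEB1 in 6, ZEB1 exceeded TWIST1 in 5 and CDH2 exceeded ZEB2 in 6, so the order of these neighbours varied between libraries. In contrast, CDH3 stood above CDH1, at a mean of 110.0 against 80.31 FPKM, when all entries listed for a gene were summed, as described further on. SNAI2 was the leading SNAIL factor with DMSO, at 14.62 and 20.07 FPKM in NT libraries against 1.79 and 0.93 for SNAI1.

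**Figure D1:**
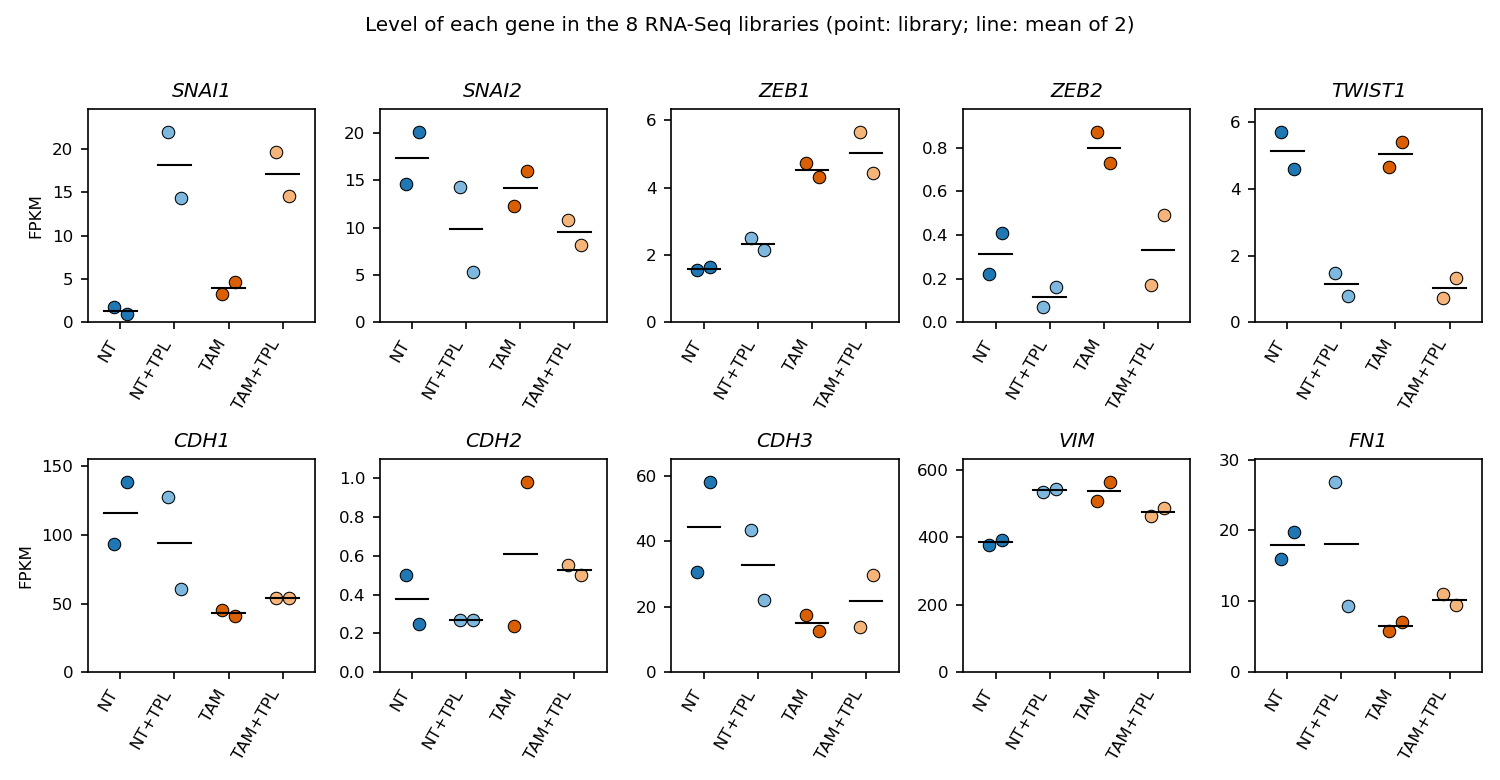
FPKM of the 10 genes in each library, with 1 panel per gene, each on its own linear axis from 0; points are libraries and lines the means of 2. SNAI1 lies above its DMSO values in all 4 TPL libraries, TWIST1 below, and the CDH1 values of TAM libraries (41.3 and 45.0 FPKM) lie below those of NT libraries (93.73 and 138.56 FPKM).

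TPL raised SNAI1 and lowered TWIST1 and ZEB2 in NT and in TAM cells, and raised VIM in NT cells. SNAI1, the SNAIL repressor of CDH1, had the largest TPL fold change of the 10 genes in NT cells. Its FPKM was 1.79 and 0.93 in the NT libraries and 21.9 and 14.36 after TPL. TAM libraries held 3.27 and 4.67, and 19.66 and 14.54 after TPL. The 4 TPL libraries were all above the 4 DMSO libraries, with no overlap. The fold change in NT cells was 3.71 on the log2 scale (SE 0.398, 13.1-fold, edgeR adjusted p = 0.000956), which is a call. In TAM cells it rose by 2.05 (SE 0.359, 4.15-fold, edgeR adjusted p = 0.00634), short of a call. TPL raised 1.22% of the tested entries and lowered 2.71% by the call rule in NT cells, and 0.844 and 2.04% in TAM cells. At the second level the shares were 17.2 and 19.8% in NT and 14.3 and 18.6% in TAM cells. The difference between the TPL effects was -1.66 (95% interval -2.88 to -0.43, edgeR adjusted p = 0.343), so it did not pass the test, and edgeR called 0% of all entries for this difference (DESeq2 called 81 higher and 63 lower), with 0.0885 and 0.0767% of entries past 0.05 and 1799 entries at an unadjusted p under 0.05. The call in NT cells was lost when any 1 of the 8 libraries was left out (edgeR adjusted p between 0.00262 and 0.00839). Over all entries, leaving out a library of NT, TAM or TAM+TPL also left 0 entries called higher or lower in NT cells, whereas 74 were called higher and 139 lower without NT+TPL replicate 1, and 8 and 11 without NT+TPL replicate 2. DESeq2 called SNAI1 and TWIST1 in both kinds of cell. Over all 16948 entries DESeq2 called 956 higher and 1598 lower in NT cells, and 885 and 1393 in TAM cells, many more than edgeR. The SNAI1 fold change stayed between 3.01 and 4.24 over the alternatives.

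TWIST1 moved the opposite way. Its FPKM was 5.7 and 4.6 in the NT libraries and 1.49 and 0.79 after TPL. TAM libraries held 4.67 and 5.4, and 0.72 and 1.32 after TPL. Every TPL library was below every DMSO library. TWIST1 fell by 2.18 on the log2 scale in NT cells (SE 0.447, edgeR adjusted p = 0.0102). It fell by 2.33 in TAM cells (SE 0.45, edgeR adjusted p = 0.00908), and that adjusted p was 0.0618 without TAM+TPL replicate 1. Between TAM and NT cells with DMSO its log2 fold change was -0.02 (95% interval -1 to 0.97).

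ZEB2, a relative of ZEB1, was at 0.22 and 0.41 FPKM in the NT libraries and at 0.07 and 0.16 after TPL. The TAM libraries were at 0.87 and 0.73, and at 0.17 and 0.49 after TPL. Its TPL values lay below the DMSO values of the same kind of cell. It fell with TPL by 2.27 in NT (SE 0.593, edgeR adjusted p = 0.0242) and by 1.68 in TAM cells (SE 0.529, edgeR adjusted p = 0.0479), on a mean of 4 counts in NT+TPL and 19 in TAM+TPL libraries, so few reads stand behind it. The edgeR adjusted p in NT cells was 0.12 without NT replicate 2 and 0.0841 without NT+TPL replicate 1. In TAM cells it was above 0.05 without any 1 library of NT, TAM or TAM+TPL, reaching 0.211 without TAM+TPL replicate 1. On limma's log2(FPKM + 1) and log2(FPKM + 0.1) scales, which shrink changes of low genes, ZEB2 was at -0.24 and -0.94 in NT (adjusted p = 0.318 and 0.223) and at -0.45 and -1.17 in TAM cells (0.0865 and 0.147). It also missed the second level in the 2-group fit in NT cells (edgeR adjusted p = 0.057) and, in TAM cells, with library size only (0.0516), upper quartile (0.0693), GAPDH scaling (0.065) and no filter (0.0625).

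SNAI2, the SNAIL factor also called SLUG, was at 14.62 and 20.07 FPKM in the NT libraries and at 14.28 and 5.37 after TPL. The TAM libraries had 12.32 and 15.97, against 10.85 and 8.15 after TPL. Its TPL libraries lay below the DMSO libraries of the same cells. The log2 fold changes were -0.84 in NT (95% interval -1.83 to 0.15) and -0.62 in TAM cells (-1.61 to 0.37), and neither passed the test. The first was -1.66 (edgeR adjusted p = 0.0127) without NT+TPL replicate 1.

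VIM is a highly expressed structural gene of these cells. Its FPKM was 378.66 and 392.34 in the NT libraries and 535.35 and 544.33 after TPL. TAM libraries held 508.18 and 564.08, and 463.42 and 487.37 after TPL. The NT+TPL libraries lay above the NT libraries, and the TAM+TPL libraries below the TAM libraries, without overlap in either. VIM rose with TPL in NT cells by 0.48 (SE 0.122, edgeR adjusted p = 0.0219), and its log2 fold change was -0.22 in TAM cells (95% interval -0.51 to 0.07). The difference between these effects was -0.7 (95% interval -1.11 to -0.3, edgeR adjusted p = 0.234). The adjusted p of the rise was 0.111 without NT replicate 1 and 0.0983 without NT replicate 2. Between TAM and NT cells with DMSO the log2 fold change of VIM was 0.49 (SE 0.122, edgeR adjusted p = 0.0634), and the adjusted p was 0.0339 and 0.0349 without NT+TPL replicate 1 or 2. With GAPDH scaling it was 0.02 (adjusted p = 0.955). The rise with TPL in NT cells also missed the second level without a filter (edgeR adjusted p = 0.0602) and in the 2-group fit (0.0941). It depends on the scaling, since it was 0.12 with equal GAPDH (adjusted p = 0.646) and 0.7 with upper quartile normalization. The median log2 fold change of all entries was -0.26 with GAPDH scaling and 0.31 with upper quartile, against 0.09 with TMM.

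**Figure D2:**
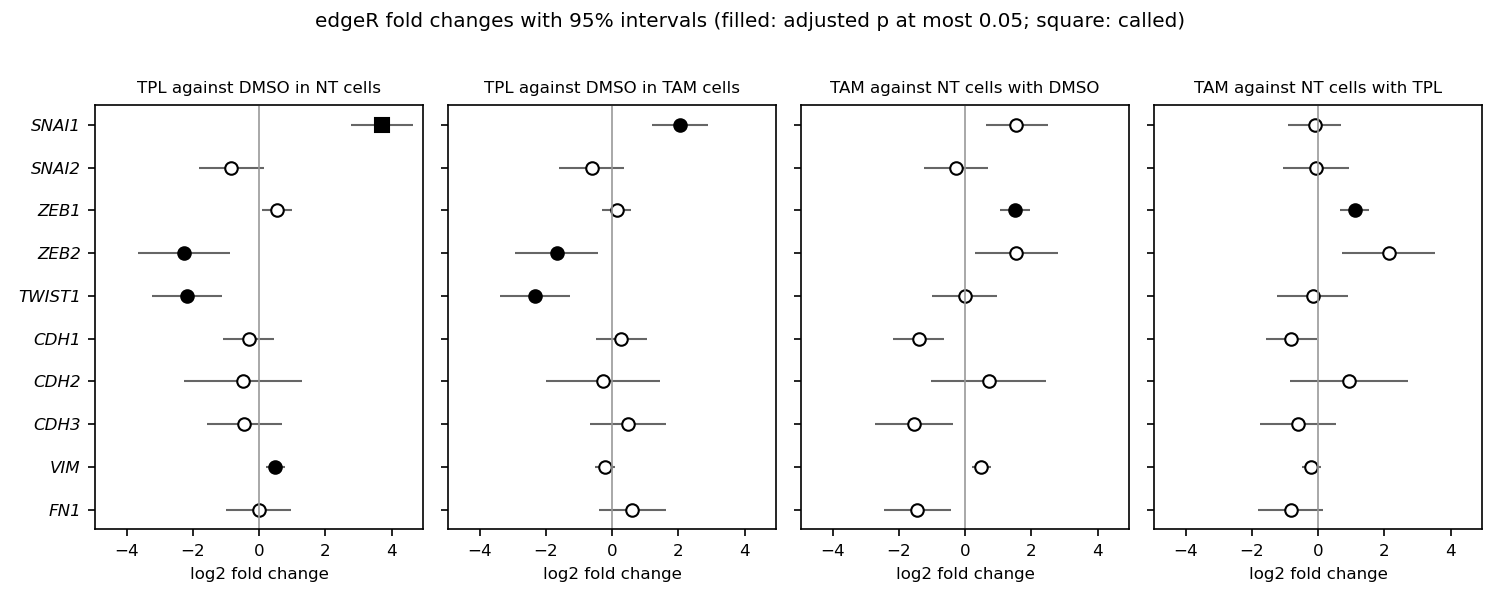
log2 fold changes of the 10 genes in 4 comparisons, with 95% intervals; filled symbols have an adjusted p of at most 0.05 and the square is the call of SNAI1. With TPL, SNAI1 is high at 3.71 and 2.05 and TWIST1 low at -2.18 and -2.33; in TAM against NT cells ZEB1 is the filled symbol, at 1.5 and 1.1.

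Between TAM and NT cells, ZEB1 alone of the 10 genes passed the second level in the 4-group edgeR fit, and it was higher in TAM cells. Its FPKM was 1.56 and 1.63 in the NT libraries against 4.74 and 4.3 in the TAM libraries. With TPL it was 2.49 and 2.15 in NT cells against 5.64 and 4.42 in TAM cells. All TAM values were above all NT values. The rise was 1.5 with DMSO (SE 0.193, 2.83-fold, edgeR adjusted p = 0.00574) and 1.1 with TPL (SE 0.19, 2.14-fold, edgeR adjusted p = 0.0182). With DMSO, 0.378% of entries were called higher and 0.277% lower, and with TPL 0.36 and 0.236%. At the second level the shares were 3.46 and 3.39% with DMSO and 2.83 and 4.21% with TPL. Of the 10 genes, edgeR called 0 in either comparison, with 7 at an unadjusted p under 0.05 with DMSO and 3 with TPL, against 19.9 and 21.3% of all entries, while DESeq2 called ZEB1 and CDH1 with DMSO and 0 with TPL. Over all 16948 entries DESeq2 called 390 higher and 355 lower with DMSO, and 303 and 368 with TPL. SNAI1 was 1.55 with DMSO (95% interval 0.62 to 2.49, edgeR adjusted p = 0.07) and -0.1 with TPL (-0.9 to 0.69). ZEB2 was 1.54 (edgeR adjusted p = 0.161) and 2.13 (edgeR adjusted p = 0.088). The adjusted p of ZEB1 with DMSO was 0.0566 without NT replicate 1 and 0.0503 without TAM replicate 1. With TPL it was 0.0602 without NT+TPL replicate 2 and 0.123 without TAM+TPL replicate 1. With TPL, ZEB1 also missed the second level with GAPDH scaling (0.86, edgeR adjusted p = 0.0615) and in the 2-group fit (0.0768). By DESeq2 with DMSO, SNAI1 (adjusted p = 0.0025), CDH1 (6.71e-05), VIM (0.000191) and FN1 (0.00159) passed the second level as well as ZEB1. In edgeR with at least 10 counts in every library, SNAI1 (adjusted p = 0.0292), CDH1 (0.00927), CDH3 (0.036) and FN1 (0.0279) did.

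The log2 fold change of ZEB1 with TPL was 0.53 in NT cells (95% interval 0.07 to 0.99, edgeR adjusted p = 0.0698) and 0.13 in TAM cells (95% interval -0.31 to 0.56), and neither passed the test.

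CDH1, the gene of E-cadherin, was lower in TAM than in NT libraries but fell short of the test. It was at 93.73 and 138.56 FPKM in the NT libraries and at 45.0 and 41.3 in the TAM libraries. With TPL it was at 127.39 and 60.68 in NT cells and at 53.75 and 53.82 in TAM cells. The TAM values were below the NT values with either treatment, without overlap. The log2 fold change between TAM and NT cells was -1.41 with DMSO (SE 0.329, edgeR adjusted p = 0.0519) and -0.82 with TPL (SE 0.325, edgeR adjusted p = 0.209), so neither passed. The first passed without NT+TPL replicate 1 or 2 (edgeR adjusted p = 0.0106 for each) and the second without NT+TPL replicate 2 (-1.22, edgeR adjusted p = 0.0345). With DMSO, CDH1 also passed in the 2-group fit (edgeR adjusted p = 0.0187), with GAPDH scaling (0.0174) and without a filter (0.0428). It did not pass with the other scalings, a replicate block or limma. The TPL fold change of CDH1 was -0.32 in NT (95% interval -1.09 to 0.44) and 0.27 in TAM cells (-0.5 to 1.04). Without NT+TPL replicate 1, the higher of the NT+TPL libraries, the former was -0.91 (edgeR adjusted p = 0.031).

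The gene-ID entries of CDH3 (P-cadherin) and, in NT+TPL, of FN1 (fibronectin) also varied widely between libraries of a group. CDH3 was at 30.42 and 58.02 FPKM in the NT libraries and at 43.32 and 21.97 after TPL. Its TAM libraries were at 17.47 and 12.53, and at 13.67 and 29.62 after TPL. FN1 was at 15.95 and 19.85 FPKM in the NT libraries and at 26.84 and 9.29 after TPL. Its TAM libraries were at 5.81 and 7.12, and at 11.05 and 9.46 after TPL. With DMSO the TAM libraries were below the NT libraries for both genes. The log2 fold changes were -1.54 for CDH3 (edgeR adjusted p = 0.133) and -1.45 for FN1 (edgeR adjusted p = 0.107), which did not pass. FN1 passed with GAPDH scaling (edgeR adjusted p = 0.0297) and in the 2-group fit (0.00979). It did not pass with the other scalings, without a filter, with a replicate block or by limma. For FN1 the adjusted p was 0.00678 and 0.00666 without NT+TPL replicate 1 or 2. With TPL, FN1 was at -0.01 in NT cells (95% interval -0.99 to 0.97) and at -0.91 (edgeR adjusted p = 0.0213) without NT+TPL replicate 1. In TAM cells it was at 0.61 (95% interval -0.4 to 1.61), with an adjusted p of 0.0363 and 0.036 without NT+TPL replicate 1 or 2. Between TAM and NT cells with TPL it was at -0.83 (95% interval -1.83 to 0.16) and at -1.37 (edgeR adjusted p = 0.0164) without NT+TPL replicate 2. The transcripts of CDH1, CDH3 and FN1 are 4845, 3706 and 8470 bases long. ZEB1 and ZEB2 (5902 and 7463 bases) are long too, and ZEB1 varied little within groups. ZEB2, on few reads, varied more outside TAM. Its replicates were at 0.22 and 0.41 FPKM (NT), 0.07 and 0.16 (NT+TPL), 0.87 and 0.73 (TAM), 0.17 and 0.49 (TAM+TPL). The shorter SNAI2 (2112 bases) was at 14.28 and 5.37 FPKM in NT+TPL. Over all entries the log ratio of replicate 2 to replicate 1 went with transcript length, with a Spearman rho of 0.301 in NT and -0.234 in NT+TPL. In TAM it was -0.154 and in TAM+TPL 0.0335, and its part in the results was not tested.

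Of some genes, the files hold more than 1 entry, the gene-ID entry and others under a RefSeq accession. The separate entries held 51.4 to 84.8% of the counts of CDH3, 25.3 to 84.6% of those of CDH2, 0 to 23.2% of those of CDH1 and 0 to 26.9% of those of FN1. When the entries of a gene were summed over all genes, a step chosen after the data had been seen, CDH3 was at 177.06 and 194.45 FPKM in the NT libraries and at 93.36 and 84.36 in the TAM libraries. With TPL it was at 131.81 and 70.74 in NT cells and at 66.29 and 61.93 in TAM cells. In that fit (15765 genes, biological coefficient of variation 0.179 against 0.315) CDH3 fell by 1.05 between TAM and NT cells (SE 0.232, edgeR adjusted p = 0.0123) and by 0.89 with TPL in NT cells (SE 0.231, edgeR adjusted p = 0.00845). CDH1 fell by 1.46 between TAM and NT cells (SE 0.223, edgeR adjusted p = 0.00108), and FN1 fell by 1.72 (SE 0.391, edgeR adjusted p = 0.0143). With TPL, CDH1 was lower in TAM than in NT cells at -0.94 (edgeR adjusted p = 0.0165) and ZEB2 higher at 2.13 (edgeR adjusted p = 0.0425), and SNAI1 was higher in TAM cells with DMSO at 1.55 (edgeR adjusted p = 0.0219). By the same fit ZEB1 was called in TAM against NT cells with DMSO (edgeR adjusted p = 0.00079), SNAI1 was called with TPL in both kinds of cell (1.64e-05 and 0.000419) and TWIST1 in TAM cells (0.000939). This fit called more genes of every kind. Over its 15765 genes it called 679 higher and 1318 lower with TPL in NT cells, against 206 and 460 by the gene-ID entries. With TPL in TAM cells it called 617 and 1151, against 143 and 345. In TAM against NT cells with DMSO it called 230 and 233, against 64 and 47.

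**Figure D3:**
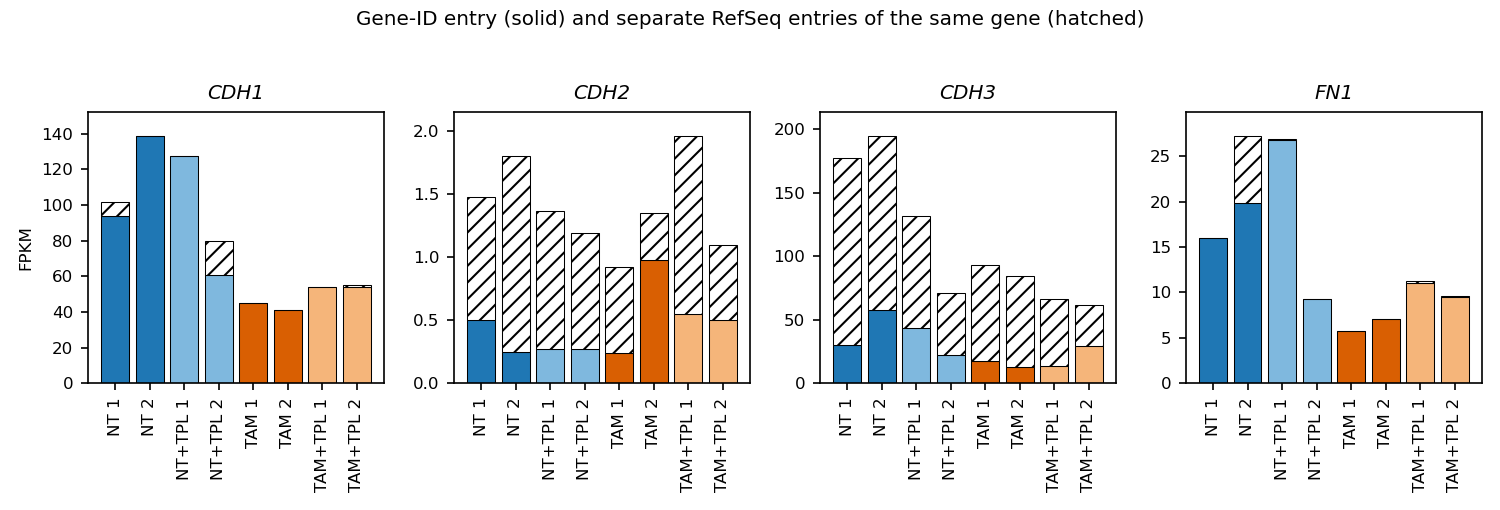
FPKM of CDH1, CDH2, CDH3 and FN1 in each library, with the gene-ID entry as the solid part of the bar and the separate RefSeq entries hatched. Most of CDH3 lies in the hatched part in every library, as does most of CDH2 except in TAM replicate 2, and CDH3 reaches 194.45 FPKM in NT replicate 2 against 58.02 for the gene-ID entry.

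CDH2 stayed low throughout. The gene-ID entry was between 0.24 and 0.98 FPKM, and its 8 expected counts were whole multiples of 8.96, up to 4 times that value, within a tolerance of 0.01. Only 9 of the 23604 entries had counts of this kind. Summed over entries it was between 0.92 and 1.96 FPKM, with 31 to 59 counts. The log2 fold change between TAM and NT cells was 0.71 by the gene-ID entry (95% interval -1.02 to 2.44) and -0.47 by the sum (-1.27 to 0.34), so its direction was not determined. Among the cadherins, CDH1 took 64.1 to 79.1% of the summed FPKM by the gene-ID entries but 32.3 to 52.5% when the entries were summed, and CDH3 took 20.1 to 35.3% and 46.7 to 67%. The ratio of CDH1 to CDH3, with entries summed, was 0.575 and 0.713 in the NT libraries and 0.966 and 1.13 after TPL. It was 0.482 and 0.49 in the TAM libraries and 0.811 and 0.889 after TPL. With entries summed this ratio, looked at after the values were seen and without a test, was higher in the 4 TPL libraries than in the 4 DMSO libraries. By the gene-ID entries the ratios overlapped, at 2.39 to 3.3 with DMSO and 1.82 to 3.93 with TPL.

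Of 10 tested EMT factors beyond the members, 1 was called lower with TPL in NT cells, 1 higher and 1 lower with TPL in TAM cells, and 2 lower in TAM against NT cells with DMSO. The shares of all entries called lower were 2.71, 2.04 and 0.277% in these comparisons, and 0.844% were called higher with TPL in TAM cells. The median of the 10 factors with TPL in NT cells was -0.99 against 0.09 over all entries. SOX4, a transcription factor, was called with TPL in NT cells at -2.5 (SE 0.241). ID2 and ID3, inhibitors of basic helix-loop-helix factors, were called in TAM against NT cells with DMSO at -2.83 (SE 0.224) and -3.88 (SE 0.177). ID2 was called with TPL in TAM cells at 3.68 and ID1 at -2.33. ID2 was at 3.01 and 1.98 FPKM in TAM and 33.18 and 33.07 in TAM+TPL libraries. Of these, ID3 alone had a difference between the TPL effects past 0.05 (2.11, edgeR adjusted p = 0.0417).

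Of 28 tested junction and epithelial identity genes, 0 rose and 9 fell at the second level in TAM against NT cells with DMSO, against 3.46 and 3.39% of all entries, with a median of -0.52 against -0.03. With TPL, 3 rose and 12 fell in NT cells, against 17.2 and 19.8% of all entries, and 4 rose and 8 fell in TAM cells, against 14.3 and 18.6%. The called genes were the desmosomal PKP2 (-1.88 with TPL in NT cells), the splicing regulator ESRP2 (-4.06 in NT and -3.73 in TAM cells) and the epithelial transcription factor GRHL3 (-5.42 in NT cells). ESRP2 was at 48.56 and 50.8 FPKM in NT and 3.91 and 2.08 in NT+TPL libraries. GRHL3 fell from 26.01 and 25.96 in NT to 0.97 and 1.19 in TAM libraries, by 4.57 (SE 0.546, edgeR adjusted p = 0.00419), short of a call.

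Of 19 tested mesenchymal and matrix genes, 2 rose and 4 fell at the second level in TAM against NT cells with DMSO, against 3.46 and 3.39% of all entries. TNC, the matrix protein tenascin, was called at 6.12 with DMSO and 7.25 with TPL, from 0.88 and 1.05 FPKM in NT to 75.89 and 56.92 in TAM libraries. TAGLN, an actin-binding protein, was called with TPL in NT cells at -2.4 and ITGA5, the fibronectin receptor subunit, at -1.44. ITGA5 was called in TAM against NT cells with TPL at 2.08, and TGFBI, a matrix protein, at -1.78 with DMSO and -2.42 with TPL. Of 5 catenins and partners, edgeR called 0 in any comparison, with 1 at an unadjusted p under 0.05 and 1 called by DESeq2 in TAM against NT cells with DMSO. Of all entries in that comparison, edgeR called 0.378% higher and 0.277% lower, and 19.9% had such a p. DESeq2 called 390 of the 16948 entries higher and 355 lower. CTNNA1 was at a log2 fold change of -0.22 and VCL (vinculin) at -1.42 (edgeR adjusted p = 0.00314) in TAM against NT cells with DMSO. Of 4 tested other cadherins, edgeR called 0, with 1 at an unadjusted p under 0.05 and 1 called by DESeq2 in that comparison. The values over all entries are those given for the catenins. CDH13 was at 20.55 to 39.97 FPKM and CDH24 at 1.58 to 6.65. CDH4, named after its values were seen, was at 1.06 and 1.08 FPKM in NT and 4.68 and 4.67 in TAM libraries. It was higher in TAM than in NT cells by 2.14 with DMSO (SE 0.269, edgeR adjusted p = 0.00522). Among TPL-treated cells it was higher in TAM than in NT cells by 2.6 (SE 0.273, edgeR adjusted p = 0.00261). The effect of TPL itself on CDH4 was -0.08 in NT (edgeR adjusted p = 0.839) and 0.38 in TAM cells (0.274). Of 14 tested genes listed as TGF-beta and Notch inputs to the EMT, a list that also holds AXL, edgeR called 0 in any comparison. In TAM against NT cells with DMSO, 5 had an unadjusted p under 0.05 against 19.9% of all entries, and DESeq2 called 2. With TPL, 8 in NT and 7 in TAM cells had such a p, against 47.8 and 45.1%, and DESeq2 called 3 and 2. Over all entries DESeq2 called 956 higher and 1598 lower with TPL in NT cells, and 885 and 1393 in TAM cells. At the second level 1 rose and 2 fell in TAM against NT cells with DMSO, against 3.46 and 3.39% of all entries. TGFB1 (0.77, edgeR adjusted p = 0.0413) rose, and NOTCH1 (-1.28, edgeR adjusted p = 0.0298) and AXL (-1.83, edgeR adjusted p = 0.0182) fell. AXL was named after its values were seen.

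The genes whose levels over the 8 libraries were most like those of each member were taken from 14134 entries by Pearson's r of log2(FPKM + 0.1), as a description. They were THUMPD3-AS1 (0.998) and UBB (0.993) for SNAI1, CTDP1 (0.996) and NAPG (0.995) for TWIST1, CD68 (0.99) and IL2RG (0.989) for ZEB1, and ARF3 (0.979) and ARCN1 (0.976) for SNAI2. For CDH1 they were DSC3 (0.986) and RBFOX2 (0.982), for CDH3 GOLGB1 (0.978) and WDR41 (0.951), for VIM NUDT22 (0.953) and PPIH (0.948), and for FN1 BAG3 (0.97) and SCNN1B (0.967). The points share library, depth and group, so each r is a description of 8 libraries.

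RNAPII peaks at transcription start sites (TSSs) were listed by the authors for each group, with starts and ends on hg19 and no score. An annotated TSS lay in 85.2 to 90.7% of the peaks of a list. The NT list holds 11222 peaks and 8653 after TPL, the TAM list 11056 and 8464 after TPL, and their peak names carry replicate 1. The names carry the value 0.02 in the NT, NT+TPL and TAM+TPL lists and 0.1 in the TAM list, and 41.5% of the TAM names end in a letter against 0% of the others, so differences that involve the TAM list cannot be told apart from another setting of the caller. The main TSS, that of the canonical transcript, lay in a listed peak for 4 of the 10 genes in the NT list and 3 in the list after TPL, and for 5 in the TAM list and 3 after TPL, against 47.7, 38.2, 42.1 and 37.4% of protein-coding genes, list by list. With any annotated TSS the numbers were 6, 4, 7 and 4, against 50.7, 40.9, 46.2 and 40.0%. By the main TSS the counts lie near the background, and the lists allow no test.

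SNAI1, SNAI2 and CDH1 had a peak over the main TSS in all 4 lists, as had 31.5% of protein-coding genes. The SNAI1 peak (chr20, TSS 48599517, hg19) ran from -278 to +172 bases in NT and from -156 to +203 after TPL. It ran from -236 to +166 in TAM and from -171 to +183 after TPL. The CDH1 peak (chr16, TSS 68771195) ran from -125 to +276 in NT and from -35 to +202 after TPL. It ran from -123 to +166 in TAM and from -113 to +130 after TPL. The upstream edge of the peaks of SNAI1, SNAI2 and CDH1 lay nearer to the TSS in each TPL list than in the matching DMSO list, as it did in both for 36.6% of the 6264 genes with such a peak in all 4 lists. In NT cells alone the share was 60.6% and in TAM cells alone 46.1%. For CDH1 in TAM cells the difference was between -123 and -113. ZEB1 had peaks in all 4 lists that covered other annotated starts and ended before its main TSS, at -83 in the NT list and -151 after TPL, and at -118 in the TAM list and -70 after TPL. The NT+TPL list held separate ZEB1 peaks, from -988 to -613 and from -458 to -151, where the NT list held a single peak from -908 to -83. The outermost upstream edge at ZEB1 lay farther from that TSS with TPL, at -988 against -908 in NT and -1045 against -927 in TAM cells. An annotated start of any kind lay in a peak of all 4 lists for 34.8% of protein-coding genes. Over whole lists the median peak width was 632 bases in NT and 553 after TPL, and 406 in TAM and 455.5 after TPL.

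CDH3 (peak of 1415 bases in NT and 1375 in TAM) was in neither TPL list, and VIM, with a peak of 6959 bases in NT and 893 in TAM that covers other starts, was in neither TPL list either. Of the genes with a main TSS in the NT list, 77.1% were also in the NT+TPL list, and 78.1% with any annotated TSS. Of those in the TAM list 80.9% were in the TAM+TPL list, by either kind of TSS. TWIST1 had its main TSS in a TAM peak alone, and the NT peak began 83 bases past that TSS. ZEB2, CDH2 and FN1 had no peak over any annotated TSS in the 4 lists.

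**Figure D4:**
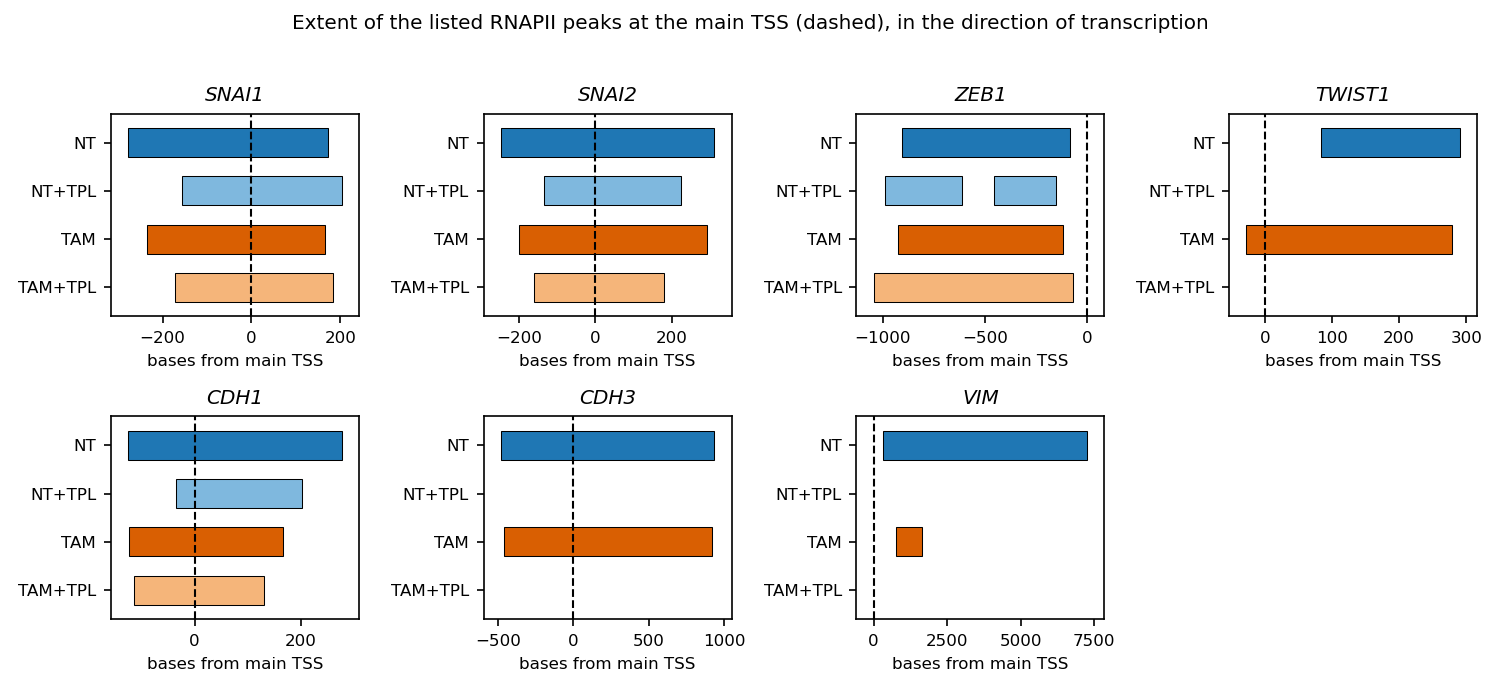
Start and end of the listed RNAPII peaks near the main TSS (dashed line), in bases in the direction of transcription, for the 7 genes with a peak; 1 row per list, each panel on its own axis. CDH3 and VIM have bars in the NT and TAM rows and none in the TPL rows, and SNAI1 has a bar over the TSS in all 4 rows.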

How the data were processed

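RNA-Seq of 8 libraries and RNAPII peak lists of 4 groups were used. The members and lists were chosen with earlier results of these data known. The authors made expected counts and FPKM from poly-A reads aligned to reference transcripts with Bowtie2 and RSEM, and deposited them per library with no further normalization of the counts. Entries missing from a file were taken as 0. After rounding to whole numbers, edgeR 4.0.16 (R 4.3.3) was applied to these expected counts with TMM factors of 0.975 to 1.03, filterByExpr by group and the quasi-likelihood test. Peak starts and ends were deposited by the authors on hg19, from peaks called over input. The lists carry no score or depth, are described as holding peaks with a TSS, and name replicate 1. Alternatives were DESeq2 1.42.0, limma 3.58.1 on log2(FPKM + 1) and log2(FPKM + 0.1), other scalings and filters, a replicate block, a fit over the 2 groups compared, an adjusted p of 0.05, and leaving out each library. Summing the entries of a gene was added after seeing the data. On simulated data (TPL against DMSO in NT cells, 16948 entries) calls were made for 0 of 50 entries changed 2-fold, 12 of 100 changed 4-fold and 19 of 50 changed 8-fold, with 1 unchanged entry called. No other entry was changed, and entries of low mean count were left out of the changed ones. In the data 17.2% of entries rose and 19.8% fell at the second level. The adjustment therefore differs, and the simulated numbers do not carry over to the data. Named genes are the 10 members and, of each related list, the called genes or otherwise the 2 of highest mean FPKM. TSSs came from GENCODE 44 on GRCh37. Symbols were found for 21077 of the 23604 entries through the gene ID, and for 2382 through a RefSeq accession. The p-values measure the spread between 2 libraries per group, which the methods give as biological replicates.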

Additional observations from a re-analysis of the deposited data

Results flagged for a closer look

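VIM was the gene for which both TPL libraries lay above both DMSO libraries in NT cells and below them in TAM cells. The TPL effect in TAM minus NT cells was -0.7 on the log2 scale (95% interval -1.11 to -0.3, edgeR adjusted p = 0.234), so the difference did not pass the test after adjustment. It stayed between -0.78 and -0.46 over the alternatives run, and its DESeq2 adjusted p was 0.00218. For this difference DESeq2 called 81 entries higher and 63 lower, and 12.3% had an unadjusted p under 0.05. VIM was flagged by these same library values, so the test gives no separate evidence of opposite directions. In TAM cells its TPL fold change was -0.22 with TMM and 0.02 with upper quartile normalization, so that direction depends on the scaling.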

How the results depend on the processing

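With 2 libraries per group the adjusted p moves with any single library, and over 1074 fold changes of the 10 genes under the alternatives 989 kept their direction and their side of the call, 12 lost a call, 23 gained one and 50 turned direction. Of those 50, 47 had an unadjusted p of at least 0.05 in both fits. The cause was not tested for any of these.

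With TPL in NT cells, where 1 of the 10 genes was called, 2 were called by DESeq2, 0 with DESeq2 size factors in edgeR, 0 with library size only, 0 in the 2-group fit, 0 to 0 without 1 library, 3 at an adjusted p of 0.05 with the same fold and 4 at 0.05 of any size. The SNAI1 adjusted p was then 0.00102, 0.00111 and 0.00989 in the 3 edgeR fits. With TPL in TAM cells, where 0 were called, 2 were called by DESeq2, 1 after a filter of 10 counts in each library, 3 at 0.05 with the same fold, 3 at 0.05 of any size and 2 with entries summed. For TAM against NT cells with DMSO, where 0 were called, the numbers were 2 by DESeq2, 1 at 0.05 with the same fold, 1 at 0.05 of any size and 1 with entries summed. With TPL, 1 passed at 0.05 of any size. Peaks within 1 kb of the main TSS were listed for 7 genes in NT. With entries summed, the mean was 1.396 FPKM for CDH2 and 110.0 for CDH3.

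The replicate numbers carry no stated pairing, and the deviations of same-numbered libraries correlated at -0.135 to 0.0501. With the replicate number as a block, 0 of the 10 genes were called in NT cells (SNAI1 adjusted p = 0.00265). The calls over all entries became 0 higher and 0 lower for TPL in either kind of cell, 28 and 9 for TAM against NT with DMSO and 21 and 9 with TPL.

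These directions turned. FN1 with TPL in NT cells (-0.01) was 0.01 by DESeq2, with its size factors and in the 2-group fit, 0.02 with library size only, 0.21 with upper quartile normalization and 0.06 with at least 10 counts. With TPL in TAM cells, CDH2 was 0.04 by limma on log2(FPKM + 0.1) and 0.34 with entries summed, CDH3 -0.52 with entries summed and VIM 0.02 with upper quartile normalization. Between TAM and NT cells with DMSO, TWIST1 was 0.01 by DESeq2, with its size factors and in the 2-group fit and 0.02 with upper quartile normalization, and CDH2 was -0.47 with entries summed. With TPL, SNAI2 was 0.08 and 0.1 by limma. Of the differences between TPL effects, ZEB2 was -0.21 and -0.23 by limma and TWIST1 0.11 with equal GAPDH.

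Leaving out 1 library turned the following. With TPL in NT cells CDH1 ranged from -0.91 to 0.11, CDH2 from -0.92 to 0.07, CDH3 from -0.98 to 0.07 and FN1 from -0.91 to 0.56. With TPL in TAM cells ZEB1 ranged from -0.07 to 0.31, CDH2 from -0.96 to 1.03 and CDH3 from -0.17 to 0.93. In TAM against NT cells with DMSO, TWIST1 ranged from -0.17 to 0.15 and CDH2 from -0.61 to 1.38. With TPL, SNAI1 ranged from -0.33 to 0.23, SNAI2 from -0.56 to 0.8, TWIST1 from -0.63 to 0.34 and FN1 from -1.37 to 0.11. The difference between TPL effects ranged from -0.31 to 1.05 for SNAI2, -0.65 to 0.33 for TWIST1 and -0.45 to 1.54 for CDH2.

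Over all entries, TPL in NT cells gave 206 higher and 460 lower calls, against 956 and 1598 by DESeq2, 437 and 998 with at least 10 counts, 0 and 0 in the 2-group fit, 99 and 568 with equal GAPDH (median log2 fold change -0.26) and 265 and 305 with upper quartile normalization (0.31). TPL in TAM cells gave 143 and 345, against 885 and 1393 by DESeq2, 378 and 871 with at least 10 counts, 76 and 201 in the 2-group fit, 77 and 207 with equal GAPDH and 196 and 210 with upper quartile normalization. TAM against NT cells with DMSO gave 64 and 47, against 390 and 355 by DESeq2, 153 and 170 with at least 10 counts, 90 and 80 without a filter, 89 and 81 by limma on log2(FPKM + 1), 38 and 22 in the 2-group fit and 36 and 73 with equal GAPDH (median -0.5). With TPL it gave 61 and 40, against 303 and 368, 111 and 161, 76 and 79, 85 and 79, 0 and 0, and 44 and 58 under the same alternatives.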
